A study of Mus musculus with 8 samples.

Results

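The 10 genes described here report on endoplasmic reticulum (ER) stress and on the integrated stress response in the liver of mice with steatohepatitis. They were chosen by name (Hspa5, Xbp1, Herpud1, Dnajb9, Ddit3, Atf3, Atf4, Trib3, Chac1 and Asns) and found by their Ensembl identifiers among the 52636 genes of the count tables. All 10 passed the filter on low counts and belong to the 15248 genes tested. The livers came from 8 male C57BL/6J mice that carried no engineered allele. At 7 weeks of age, 4 mice received AAV8-TBG-GFP and the other 4 received AAV8-TBG-AGXT, an adeno-associated virus of serotype AAV8 with human AGXT, the enzyme that turns glyoxylate into glycine. The TBG promoter restricts both transgenes to hepatocytes, so the other liver cells were not a target of either. From 8 weeks of age, all 8 mice, controls included, ate a diet rich in fat, fructose and cholesterol that causes steatohepatitis (the MASH diet) for 24 weeks. One library was made per mouse, and the mice are called by number. Controls (AAV8-GFP) were 303, 311, 314 and 315, whereas 308, 309, 316 and 319 received AAV8-AGXT.

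Proteins that enter the secretory pathway fold in the ER, and hepatocytes secrete most plasma proteins. When unfolded proteins build up, the ER membrane sensors IRE1, ATF6 and PERK start the unfolded protein response: IRE1 splices Xbp1 mRNA, ATF6 is cut to release a transcription factor, and both raise chaperones and degradation factors. PERK, like the kinases GCN2, PKR and HRI, phosphorylates eIF2α, which slows most translation but favours that of ATF4. This shared branch is the integrated stress response, in which ATF4 and its target CHOP (encoded by Ddit3) induce genes of amino acid supply and, under lasting stress, of cell death. Counts per gene measure the mRNA alone: they separate neither spliced from unspliced Xbp1, nor the translated from the untranslated share of Atf4.

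No member passed the test in either direction. The edgeR quasi-likelihood test called 0 of 10 members at an adjusted p under 0.05. Of all tested genes it called 4.35%, 2.45% as higher and 1.9% as lower in AAV8-AGXT mice. With 10 members, a count of 0 does not set them apart from such a share. At an unadjusted p under 0.05 stood 2 members, Ddit3 and Chac1, both lower, and 26.2% of all tested genes. By limma-voom 0 members were called. DESeq2 and limma voomWithQualityWeights each called 1 member lower, Ddit3 in both, against 6.38% and 3.97% of all genes called lower by these tools. In no member did the 2 groups of mice separate without overlap, and of all tested genes 8.93% were higher and 7.63% lower without overlap. The log2 fold change was above 0 in 2 members and below 0 in 8, with a median of -0.10, beside a median of 0.02 over all tested genes. These livers are mixtures of cells, so that fewer cells of a type and less RNA per cell cannot be told apart.

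**Figure D1:**
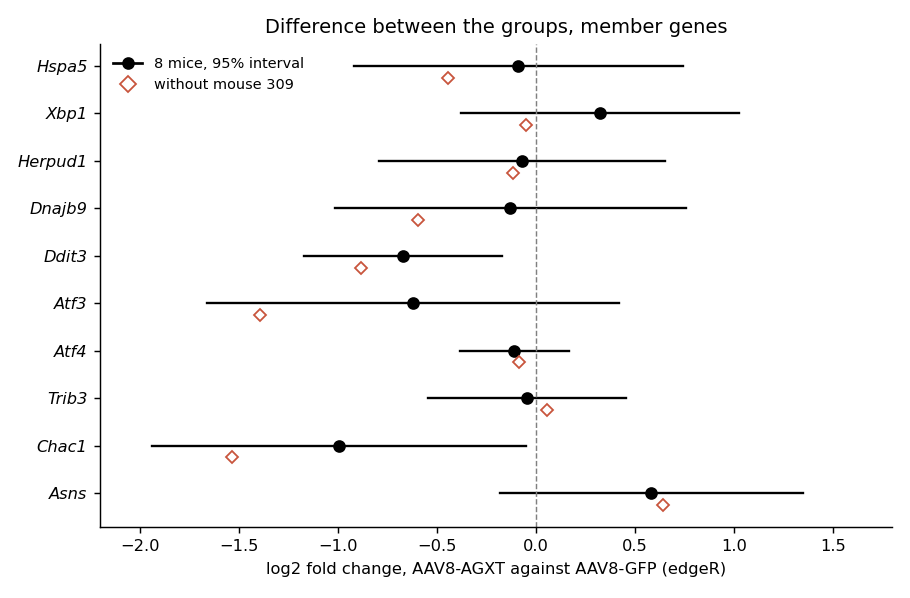
Log2 fold change of each member in AAV8-AGXT against AAV8-GFP mice, by edgeR. Filled circles and bars are the value and its 95% interval over 8 mice, and open diamonds are the value without mouse 309. Only the intervals of Ddit3 and Chac1 leave out 0, and neither gene passed the adjusted threshold.

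Promoter letters are shown for the 6 members whose start region held a response element known for these pathways. RefSeq windows of the same length, from 250 bases before to 50 after the start, were at hand for all 10 members (GRCm38.p6) and were searched on both strands. The ER stress response element was searched as CCAAT, 9 bases of any kind and CCACG, and the related ERSE-II as ATTGG, 1 base of any kind and CCACG. The core of the unfolded protein response element was TGACGTG, which shares its first bases with the cyclic AMP response element. The core of the C/EBP-ATF response element (CARE), which ATF4 and CHOP bind with C/EBP partners, was TGATG, 1 base of any kind and AA. Capitals mark the matches, and no match overlapped another.
Hspa5: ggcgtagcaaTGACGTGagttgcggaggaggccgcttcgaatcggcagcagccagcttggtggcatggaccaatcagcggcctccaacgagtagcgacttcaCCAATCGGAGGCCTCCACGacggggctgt
Herpud1: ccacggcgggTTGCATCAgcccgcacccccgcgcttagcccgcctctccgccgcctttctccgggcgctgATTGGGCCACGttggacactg
Atf3: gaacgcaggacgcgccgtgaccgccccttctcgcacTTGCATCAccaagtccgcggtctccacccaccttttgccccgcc
Trib3: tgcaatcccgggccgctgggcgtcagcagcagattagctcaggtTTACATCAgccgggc
Chac1: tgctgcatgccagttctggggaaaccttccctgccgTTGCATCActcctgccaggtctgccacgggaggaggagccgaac
Asns: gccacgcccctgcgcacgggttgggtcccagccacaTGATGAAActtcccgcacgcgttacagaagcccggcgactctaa
The Hspa5 stretch lies at chr2:34771923-34772053 on the plus strand. It holds the unfolded protein response element core at -157 to -151 and the ER stress response element at -65 to -47 from the RefSeq start. The Herpud1 stretch, chr8:94386307-94386397 on the plus strand, holds a CARE on the opposite strand at -112 to -105 and the ERSE-II at -52 to -42. A CARE stands at -110 to -103 in Atf3 (chr1:191183400-191183479, minus strand), at 15 to 22 in Trib3 (chr2:152344032-152344090, minus strand) and at -193 to -186 in Chac1 (chr2:119351013-119351092, plus strand), each time on the strand opposite to the gene. The one in Asns (chr6:7693189-7693268, minus strand) reads along the gene at -23 to -16. A CARE core was in 5 of the 10 member windows and in 3.97% of the 32851 windows of all genes. The ER stress response element was in 0.119%, the ERSE-II in 0.0365% and the unfolded protein response element core in 2.01% of these windows. The windows of Xbp1, Dnajb9, Ddit3 and Atf4 held none of these motifs. The log2 fold changes of the 5 members with a CARE ran from -0.995 in Chac1 to 0.58 in Asns, none of them passed the test, and differences among them were not tested.

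Hspa5 encodes BiP, the main ER chaperone, which also holds the stress sensors inactive (chromosome 2, 34771970 to 34777547, GRCm38). Its normalized counts-per-million (CPM) were 431, 879, 1319.9 and 1357 in AAV8-GFP mice 303, 311, 314 and 315, and 664, 1535, 829 and 722 in AAV8-AGXT mice 308, 309, 316 and 319. The lowest value was that of a control, mouse 303, the highest was that of AAV8-AGXT mouse 309, and the groups overlapped throughout. Group means were 997 ± 435 and 937 ± 404 CPM (SD, n = 4 each), with a log2 fold change of -0.09 (SE 0.37, edgeR adjusted p = 0.906). The 95% interval of the change in Hspa5 ran from -47.1% to 67.3%, so the data are compatible with a fall or a rise within these bounds.

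Xbp1 encodes the transcription factor that IRE1 activates by splicing. In the same order of mice, Xbp1 stood at 149.9, 259, 315 and 271 CPM in the controls and at 204, 517, 221 and 304 CPM in AAV8-AGXT mice. Again mouse 303 was lowest and mouse 309 highest, and the 6 other mice lay between 204 and 315 CPM in no order by group. The log2 fold change was 0.32 (SE 0.31, edgeR adjusted p = 0.547), with an interval from -22.9% to 103.2%, and without mouse 309 it was -0.05.

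Herpud1 encodes an ER membrane protein of the degradation machinery. Its values were 269, 611, 645 and 876 CPM in controls and 748, 599, 376 and 561 CPM in AAV8-AGXT mice. Mouse 303 was lowest here too, whereas the highest mouse was control 315 and mouse 309 stood in the middle. Between the groups Herpud1 differed by a log2 fold change of -0.07 (SE 0.32, edgeR adjusted p = 0.912).

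Dnajb9 encodes ERdj4, a co-chaperone of BiP and a target of XBP1. It was counted at 22.1, 41.5, 73.8 and 55.3 CPM in controls and at 27.5, 79.9, 34.1 and 34.6 CPM in AAV8-AGXT mice. The order of the mice was close to that of Hspa5, with mouse 303 lowest, mice 314, 315 and 309 highest, and no separation by group. Dnajb9 had a log2 fold change of -0.13 (SE 0.40, edgeR adjusted p = 0.868). An annotated microRNA gene on the other strand, Mir5627, shares 14 bases with the exons of Dnajb9.

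**Figure D2:**
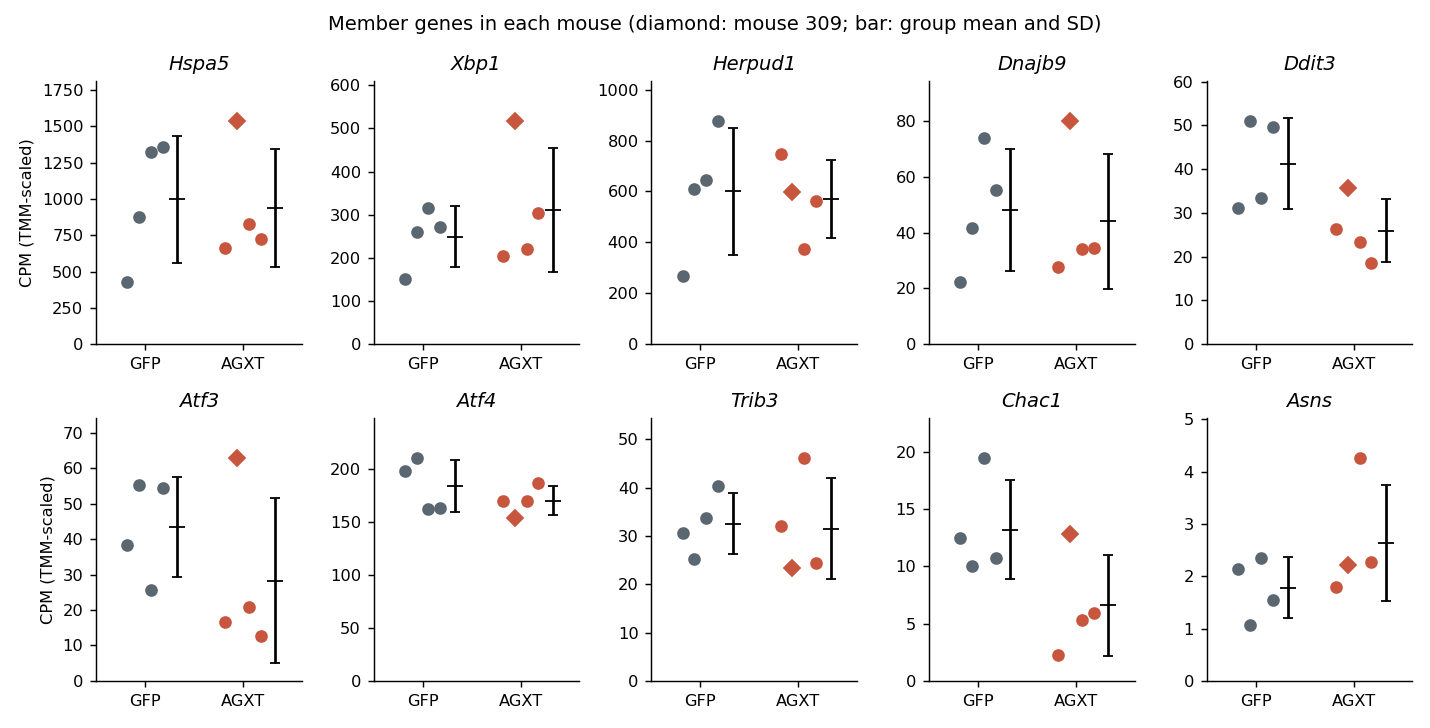
CPM of the 10 members in each mouse, 4 AAV8-GFP mice (grey) and 4 AAV8-AGXT mice (red, with mouse 309 as a diamond), beside the group mean and SD. The groups overlap in all 10 panels, and mouse 309 is the highest of the 8 mice for Hspa5, Xbp1, Dnajb9 and Atf3.

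Atf4 encodes the transcription factor at the centre of the integrated stress response. It had the least spread of the members, with 198, 210.4, 163 and 163 CPM in controls and 170.0, 154, 169.8 and 187 CPM in AAV8-AGXT mice. The highest mouse had 1.37 times the level of the lowest, and the groups overlapped. A log2 fold change of -0.11 separated the means (SE 0.12, edgeR adjusted p = 0.611). Its interval, -23.5% to 12.2%, was the narrowest of the 10 members.

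Ddit3 encodes CHOP, which ATF4 induces and which drives the death arm of the response (chromosome 10, 127290774 to 127296288). Ddit3 was counted at 31.1, 51.0, 33.4 and 49.6 CPM in controls and at 26.2, 35.6, 23.3 and 18.6 CPM in AAV8-AGXT mice. The 3 lowest mice were AAV8-AGXT mice, and the fourth, mouse 309, lay above controls 303 and 314. Means were 41.3 ± 10.5 and 26.0 ± 7.17 CPM (SD, n = 4 each), and the log2 fold change of -0.67 (SE 0.22) missed the threshold in edgeR (adjusted p = 0.101). The two-sided exact permutation test of the means also missed it (p = 0.0857, where 4 mice against 4 allow 0.0286 at the least). By DESeq2 the adjusted p was 0.0429 and by limma voomWithQualityWeights it was 0.0448, and over the 17 alternative settings it lay between 0.0429 and 0.262. Exons of Ddit3 share 81 bases with the genes Mars and Gm4189 on the other strand, and the strand setting of the counting is not given in the sources used here, so the Ddit3 counts carry that uncertainty. Mars itself, a tRNA synthetase gene, had a log2 fold change of 0.11.

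Atf3 encodes a transcription factor of the same family that many stresses, ER stress among them, induce early. Atf3 had 38.5, 55.4, 25.5 and 54.3 CPM in controls, and 16.6, 62.9, 20.9 and 12.7 CPM in AAV8-AGXT mice. All AAV8-AGXT mice except 309 lay below every control, whereas mouse 309 was the highest of all 8. The log2 fold change was -0.62 (SE 0.47, edgeR adjusted p = 0.426), with an interval from -68.4% to 33.7%.

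Trib3, Chac1 and Asns are outputs of ATF4 and CHOP. Trib3, a pseudokinase that feeds back on ATF4, was at 30.6, 25.3, 33.8 and 40.4 CPM in controls and at 32.1, 23.4, 46.2 and 24.4 CPM in AAV8-AGXT mice. Highest and lowest were both AAV8-AGXT mice, 316 and 309, and the log2 fold change was -0.04 (SE 0.22, edgeR adjusted p = 0.924). Chac1, which degrades glutathione, had 12.5, 10.1, 19.5 and 10.8 CPM in controls and 2.28, 12.8, 5.34 and 5.95 CPM in AAV8-AGXT mice. As for Atf3, all AAV8-AGXT mice but 309 were below every control, and mouse 308 had the lowest value with 33 read pairs. Chac1 means were 13.2 ± 4.30 and 6.59 ± 4.44 CPM (SD, n = 4 each), the log2 fold change was -0.995 (SE 0.42), and edgeR gave an adjusted p of 0.171. The interval for Chac1 ran from -73.9% to -3.56%, and the two-sided exact permutation test gave p = 0.114. Asns, asparagine synthetase, was scarce at 2.15, 1.07, 2.35 and 1.54 CPM in controls and 1.79, 2.22, 4.26 and 2.27 CPM in AAV8-AGXT mice, that is 26 to 83 read pairs per mouse. Mouse 316 was highest for Asns as for Trib3, and the log2 fold change was 0.58 (SE 0.34, edgeR adjusted p = 0.308).

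Divided by exon length, the members differed widely in level. In AAV8-GFP mice Herpud1 and Hspa5 led with 257 ± 107 and 236 ± 103 CPM per kb (SD, n = 4), a difference well within their spread. Atf4 and Xbp1 followed with 77.9 ± 10.3 and 76.6 ± 21.6 CPM per kb, also indistinguishable. Ddit3, Atf3, Dnajb9 and Trib3 lay between 24.1 ± 6.12 and 15.3 ± 2.98 CPM per kb, and neighbours in that order overlapped within their SDs. Chac1 came next with 8.06 ± 2.63 CPM per kb, and Asns was last with 0.650 ± 0.213 CPM per kb.

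The ER chaperone side of the set varied more between mice of one group than most genes did. The pooled SD within groups, on the log2 CPM scale, was 0.67 for Hspa5, 0.71 for Dnajb9, 0.59 for Herpud1 and 0.54 for Xbp1, against a median of 0.26 over all tested genes. This placed them at the 91.4th, 92.9th, 87.7th and 84.5th percentiles of all tested genes. Atf3 (0.80) and Chac1 (0.77) stood higher still, at the 95.3rd and 94.5th percentiles, whereas Atf4 (0.16) was at the 21.5th. Mouse 303 was the lowest of the 8 mice for Hspa5, Xbp1, Herpud1 and Dnajb9 alike. It was also lowest for 15 of the 20 other ER chaperones and folding enzymes and for 9 of 15 genes of ER-associated degradation. The summed level of the 20 chaperone genes was 3664, 4615, 6259.8 and 7372 CPM in controls 303, 311, 314 and 315. In AAV8-AGXT mice 308, 309, 316 and 319 it was 4332, 6445, 4389.6 and 4975 CPM. Control 315 was highest for 12 and mouse 309 for 6 of these 20 genes. So the ER chaperones spread over both groups, with 1 control at the bottom and 2 controls and 1 AAV8-AGXT mouse at the top.

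**Figure D3:**
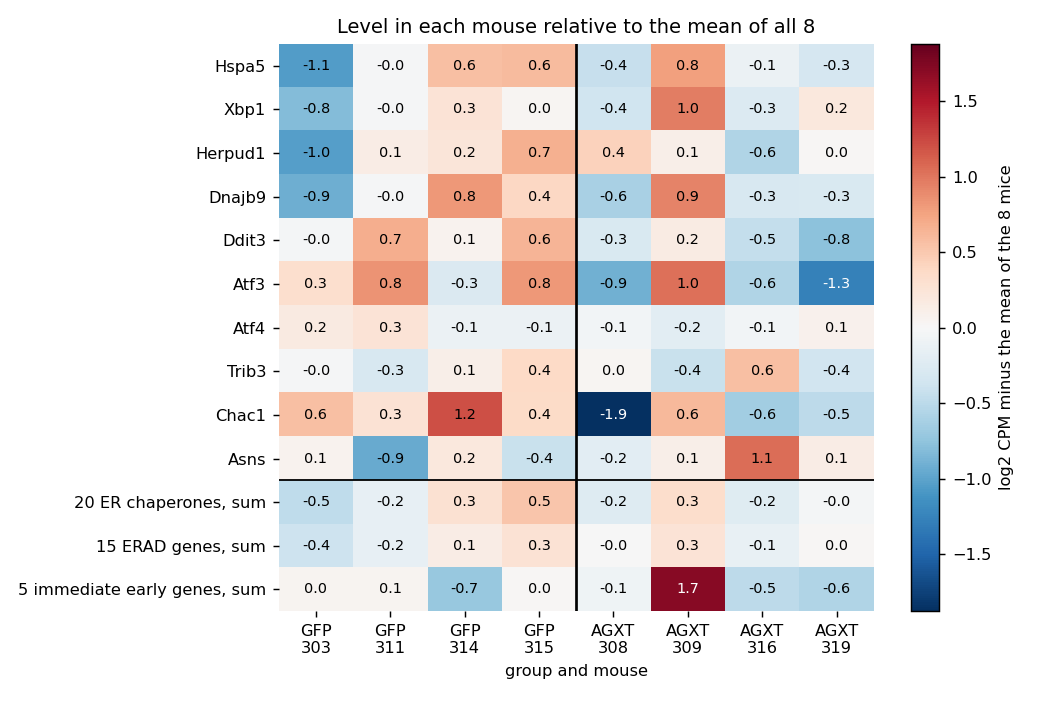
Log2 CPM of each member, and of 3 summed lists, in each mouse minus the mean of the 8 mice, with controls left and AAV8-AGXT mice right of the line. Mouse 303 is low for Hspa5, Xbp1, Herpud1 and Dnajb9, and mouse 309 stands out for the 5 immediate early genes.

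Across the 8 mice, Dnajb9 followed Hspa5 on the log2 CPM scale with Pearson's r = 0.96 (exact permutation p = 0.000124, adjusted over 9 relations 0.00112) and Spearman's rho = 0.95 (exact permutation p = 0.00114, adjusted 0.0103). Without mice 303 and 309, which lay farthest from the median of Hspa5, r was 0.94. Xbp1 followed less closely, with r = 0.84 (exact permutation p = 0.00898, adjusted 0.0404) and rho = 0.81 (exact permutation p = 0.0218, adjusted 0.0981). Without those mice r was 0.55 for Xbp1, so that relation was weaker without them, over a narrower range of Hspa5. Within the controls and the AAV8-AGXT mice, with mice 303 and 309 kept, r for Xbp1 was 0.96 and 0.89. For Herpud1 r was 0.66 (exact permutation p = 0.0756, adjusted 0.17), with 0.96 within the controls and -0.06 within the AAV8-AGXT mice. Hspa5 was related to each of the other 9 members, and these relations were computed after the values had been seen. The remaining 6 relations had adjusted p-values of 0.17 or above by permutation. Among these, Atf4 ran opposite to Hspa5, with r = -0.69 (exact permutation p = 0.0634, adjusted 0.17). Within the controls r for Atf4 was -0.72, and within the AAV8-AGXT mice it was -0.82.

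Mouse 309, singled out after its values were seen, stood apart in another respect. The summed level of the immediate early genes Fos, Jun, Junb, Egr1 and Ier2, which cells switch on within minutes of many stimuli, was 2010.1 CPM in mouse 309. In the other 7 mice it lay between 372 and 635 CPM, and all 5 genes were highest in mouse 309. Their part in the result was not tested. Without mouse 309, Atf3 had a log2 fold change of -1.39 (SE 0.29, edgeR adjusted p = 0.0417) and Chac1 one of -1.54 (SE 0.35, edgeR adjusted p = 0.0496), and both were called lower. Ddit3 then had -0.88 (SE 0.21, edgeR adjusted p = 0.0508). Over all genes tested without this mouse 1.67% were called lower, beside 2 of 10 members. Because the mouse was singled out from the values of these same members, the 2 shares cannot be compared fairly. In the fits that left out any other mouse, 0 members were called, but these fits also called fewer of all tested genes. They called 2 genes without mouse 311, 14 without 319, 15 without 314, 177 without 308 and 193 without 303. The counts were 411 without 316 and 629 without 315, against 643 without 309. Where so few genes passed, a count of 0 members says little. Without mouse 309, the 3 remaining AAV8-AGXT mice all lay below the 4 controls for Ddit3, Atf3 and Chac1. In that comparison 11.6% of all genes were lower without overlap. Means in these 3 mice were 22.7 ± 3.83 CPM for Ddit3, 16.7 ± 4.08 CPM for Atf3 and 4.52 ± 1.97 CPM for Chac1 (SD, n = 3). The ER chaperone members did not pass the test without mouse 309 either, with -0.45 for Hspa5 (edgeR adjusted p = 0.437) and -0.60 for Dnajb9 (edgeR adjusted p = 0.284).

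The wider pathway was read from 11 lists that hold 132 genes, of which 130 were tested. Of these, 4 were called higher and 4 lower (6.15%, beside 4.35% of all genes), 35 stood at an unadjusted p under 0.05, and the median log2 fold change was -0.04. Over all tested genes 26.2% stood at an unadjusted p under 0.05, and 47.7% had a log2 fold change below 0. Genes of one list can rise and fall together in a mouse, as the ER chaperones did. Counts of signs within a list are therefore not independent. Among the 9 sensors and their proteases, Creb3l3 alone was called. It encodes CREBH, a liver transcription factor anchored in the ER membrane that acts on fasting lipid metabolism, and it lay at 333 to 443 CPM in controls and at 529 to 824 CPM in AAV8-AGXT mice. Creb3l3 thus differed by 0.70 on the log2 scale (SE 0.17, edgeR adjusted p = 0.0486). Eif2ak3, which encodes PERK, was at 24.5 to 36.3 CPM in controls and 14.5 to 24.6 CPM in AAV8-AGXT mice, with -0.71 (edgeR adjusted p = 0.0678). DESeq2 and limma voomWithQualityWeights called Eif2ak3 lower. Both tools called more genes in the whole series than edgeR did. DESeq2 called 1068 higher and 1034 lower, limma voomWithQualityWeights 804 and 606, and edgeR 374 and 290.

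Of the 20 ER chaperones and folding enzymes, 0 were called by edgeR, DESeq2, limma-voom or limma voomWithQualityWeights, and 1 stood at an unadjusted p under 0.05. Their median log2 fold change was -0.13, and 15 of 20 lay below 0. The smallest p-values were those of the prolyl isomerases Fkbp2, with -0.32 (edgeR adjusted p = 0.139), and Ppib, with -0.22 (edgeR adjusted p = 0.417). Of the 15 genes of ER-associated degradation, edgeR called 0, with 3 at an unadjusted p under 0.05 and a median of 0.10. The lectin gene Erlec1 had 0.41 (edgeR adjusted p = 0.081), and DESeq2 and limma voomWithQualityWeights called it higher. Of the 18 genes of ER translocation, signal peptide removal and export, edgeR called 0, with 5 at an unadjusted p under 0.05 and a median of -0.19. The log2 fold change was below 0 in 12 of the 18. First by p-value were Spcs1, a signal peptidase subunit, with 0.51 (edgeR adjusted p = 0.0678) and Srpr, a subunit of the signal recognition particle receptor, with 0.43 (edgeR adjusted p = 0.0904). DESeq2 called both higher, limma voomWithQualityWeights called Spcs1, and limma-voom called 0. The other genes of this list at an unadjusted p under 0.05 lay below 0 in edgeR.

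Of the 11 genes of the eIF2α kinases (PERK apart), eIF2α, its phosphatase and eIF2B, edgeR called 0. The log2 fold change was above 0 in 10 of them, with a median of 0.18 and 4 at an unadjusted p under 0.05. Ppp1r15b, which encodes the constitutive subunit of the eIF2α phosphatase, had 0.30 (edgeR adjusted p = 0.0871) and was the only one that DESeq2 called, as higher. Eif2b5, a subunit of the exchange factor that phosphorylated eIF2α inhibits, had 0.29 (edgeR adjusted p = 0.0938). Both limma fits called 0 of the 11. Of 7 partners and co-regulators of ATF4 and CHOP, 0 were called by any of the 4 tools, and 0 stood at an unadjusted p under 0.05 in edgeR. The smallest p-values were those of Nupr1, with -1.03 (edgeR adjusted p = 0.196), and Nfe2l1, with 0.22 (edgeR adjusted p = 0.265).

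**Figure D4:**
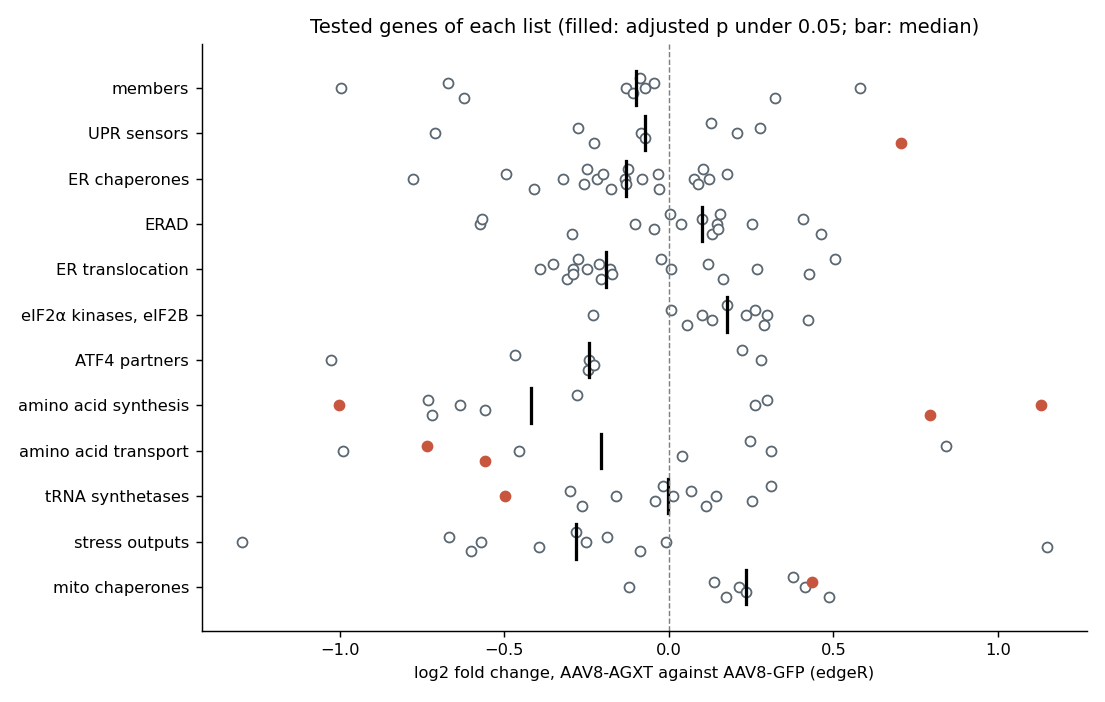
Log2 fold change (AAV8-AGXT against AAV8-GFP, edgeR) of every tested member and of the tested genes of the 11 pathway lists, 1 circle per gene, with the median of each list as a bar. The 8 filled circles passed the adjusted threshold, 4 on either side of 0, and none is a member.

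Of the 8 called genes, 5 were amino acid genes that ATF4 is known to induce, and they moved in both directions. Called by edgeR were 30% of the tested amino acid and one-carbon synthesis genes and 25% of the tested transporters, beside 4.35% of all genes. These lists are short and were chosen with earlier results of these data known, so the shares are no test. Of 10 tested genes of amino acid and one-carbon synthesis, edgeR and both limma fits called 2 higher and 1 lower, DESeq2 called 3 and 1, and the edgeR median was -0.42. Mthfd2, the mitochondrial one-carbon enzyme, had 5.07 to 6.98 CPM in controls and 2.35 to 3.67 CPM in AAV8-AGXT mice, with a log2 fold change of -1.002 (SE 0.20, edgeR adjusted p = 0.0349). Cth, which makes cysteine from cystathionine, had 132 to 198 CPM in controls and 212 to 295 CPM in AAV8-AGXT mice, with 0.79 (SE 0.16, edgeR adjusted p = 0.0363). Got1, the cytosolic aspartate aminotransferase, had 82.5 to 110.7 CPM in controls and 152 to 327 CPM in AAV8-AGXT mice, with 1.13 (SE 0.24, edgeR adjusted p = 0.0374). Cth and Got1 also serve the everyday amino acid metabolism of hepatocytes. In AAV8-AGXT mice 5 genes induced in liver on fasting (Pck1, G6pc, Igfbp1, Cpt1a and Angptl4) summed to 4789 to 6884 CPM and in controls to 3216 to 5379.7 CPM. In controls Pck1 had a mean of 2720 CPM in a mean sum of 4135 CPM. Of the 5 genes, 1 was called higher, Cpt1a (0.73). The log2 fold change was above 0 in 3 of them, whereas G6pc (-0.17) and Igfbp1 (-0.02) lay below 0. The part of these 5 genes in the result was not tested.

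Of 8 tested amino acid transporters, edgeR called 2 lower and 0 higher, with a median of -0.21. DESeq2 called 3 lower and 1 higher, limma voomWithQualityWeights 2 and 1, and limma-voom 1 and 0. The transporter called higher by DESeq2 and voomWithQualityWeights was Slc7a2, a carrier of cationic amino acids named after its values were seen, with 0.84 in edgeR (adjusted p = 0.0684). Slc3a2, the heavy chain shared by several transporters, had 74.1 to 86.5 CPM in controls and 45.0 to 64.3 CPM in AAV8-AGXT mice, with -0.56 (SE 0.12, edgeR adjusted p = 0.0376). Slc1a5, a glutamine carrier, had 11.6 to 16.2 CPM in controls and 6.31 to 9.96 CPM in AAV8-AGXT mice, with -0.74 (SE 0.18, edgeR adjusted p = 0.0495). Of 12 cytosolic tRNA synthetases, Cars alone was called, with -0.50 (SE 0.11, edgeR adjusted p = 0.0413), and its exons overlap the gene Gm15580 on the other strand. The list had a median of 0.00, and the next smallest p-value was that of Eprs, with 0.25 (edgeR adjusted p = 0.167).

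Of 11 growth, secreted and death outputs of ATF4 and CHOP, edgeR called 0, with 4 at an unadjusted p under 0.05. The log2 fold change was below 0 in 10 of them and the median was -0.28. Ppargc1b, a coactivator of oxidative metabolism, was the exception with 1.15 (edgeR adjusted p = 0.061). Ddit4, an inhibitor of mTORC1, had -0.67 (edgeR adjusted p = 0.071). The groups did not overlap for 1 gene of the list that was higher, Ppargc1b, and for 3 that were lower, Ddit4 among them. Over all tested genes 8.93% were higher and 7.63% lower without overlap. DESeq2 called 1 of the 11 higher and 3 lower, limma voomWithQualityWeights 1 and 2, and limma-voom 1 and 0. Of 9 mitochondrial chaperones and proteases, edgeR called 1 higher, Dnaja3, with 0.43 (SE 0.10, edgeR adjusted p = 0.0461), which overlaps Coro7 and Vasn. Hspd1, the mitochondrial chaperonin, had 0.49 (edgeR adjusted p = 0.0738), and the median of the list was 0.23. DESeq2 called 3 of the 9 higher and limma voomWithQualityWeights 2, Dnaja3 and Hspd1 in both, and limma-voom called Dnaja3 alone. When single mice were left out, the 8 called pathway genes passed the threshold in 0 to 3 of 8 fits each, and Cars passed in 0. Some of these fits called few of all tested genes, 2 without mouse 311, 14 without 319 and 15 without 314. Hardly any gene could pass there, so the counts say little about single genes.

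The libraries held 17095433 to 28780140 read pairs assigned to genes, and the biological coefficient of variation was 23.3%. The mouse Agxt row had 148 to 179.9 CPM in controls and 201 to 405 CPM in AAV8-AGXT mice, but the transgene is human and has no row of its own, so this row is no direct check of it. Among markers of the cells a liver sample holds, 4 hepatocyte genes summed to 44144 to 54268 CPM in controls and 52227 to 73671 CPM in AAV8-AGXT mice. Sums were 419 to 726 and 201 to 580.5 CPM for 5 macrophage genes, and 316 to 504 and 174 to 388 CPM for 5 stellate cell and fibroblast genes, 1 of which was called lower. The genes of a list did not all move alike: 2 of the 5 macrophage genes and 1 of the 5 stellate cell and fibroblast genes lay above 0. In controls Lyz2 had a mean of 297 CPM in a mean macrophage sum of 554 CPM. The sums of 4 cholangiocyte genes were 23.5 to 62.6 and 13.7 to 33.2 CPM, with all 4 genes lower at an unadjusted p under 0.05 and 0 called. For 4 endothelial genes the sums were 89.2 to 137 and 104 to 164 CPM, for 5 B and plasma cell genes 34.4 to 72.9 and 25.3 to 58.1 CPM, and for 4 T cell genes 6.83 to 12.9 and 2.28 to 7.498 CPM. No marker was at 0 in any mouse, and the part of these markers in the member values was not tested.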

How the data were processed

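Liver RNA was sequenced by the authors from 8 mice, 4 per group, with stranded mRNA libraries and 1 library per mouse. Per the methods and the processing notes, reads were trimmed with Trimmomatic 0.35, mapped with HISAT2 2.1.0.13 to GRCm38 and counted with HTSeq 0.6.0 on the annotation of Ensembl release 90. The deposited values are raw counts of read pairs per gene. The strand option of the counting is not given in the sources used here, so overlapping genes are uncertain. HTSeq's tallies of pairs on no gene were kept out of library sizes. On average over the AAV8-GFP and AAV8-AGXT mice they were 5.40% and 5.31% (no feature), 5.88% and 5.39% (ambiguous), 0.982% and 1.49% (low quality), 2.63% and 4.63% (not aligned) and 19.5% and 21.7% (several places).

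Symbols, exon lengths and overlaps came from GENCODE M21 on the same build, which held 52489 of the 52636 identifiers. Genes kept by filterByExpr were scaled by TMM and tested with edgeR 4.0.16 in R 4.3.3 (quasi-likelihood, treatment as the only term), with Benjamini-Hochberg adjustment over all tested genes and a threshold of 0.05. Log2 fold changes used a prior count of 0.125, and 95% intervals used the t quantile of edgeR's degrees of freedom. Alternatives were DESeq2 1.42.0, limma-voom and voomWithQualityWeights (limma 3.58.1), robust estimation, other scalings, other filters on low counts and each mouse left out in turn. The fits were tested on simulated data. Permutation tests of group means were exact over the 70 arrangements of the mice, and those of correlations over the 40320 pairings. Named were all 10 members and, from each pathway list, the 2 genes with the smallest p-value and every called gene up to 6. Mars and 5 fasting and 5 immediate early genes were named in addition. One gene that this rule chose is not reported here. The members and lists were chosen with earlier results of these data known.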

Additional observations from a re-analysis of the deposited data

Results flagged for a closer look

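In groups of 4 mice, the distance of the highest or lowest mouse from the nearest other mouse was set against the range of the group, on log2 CPM with 0.1 added, for 33 genes, that is 66 groups. In 1 of them, Cth in AAV8-AGXT mice, this share, 0.937, exceeded Dixon's 95% limit for 4 values. Mouse 309 had 212 CPM and the other 3 had 289 to 295 CPM, all above the highest control. Chance marks about 1 group in 20.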

How the results depend on the processing

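Of 170 values of single members under the 17 alternatives, 152 kept their direction and their side of the threshold, 14 changed sign, all between -0.05 and 0.17, and 4 were newly called. The calls were Ddit3 by DESeq2 (-0.68) and by limma voomWithQualityWeights (-0.81), and Atf3 (-1.39) and Chac1 (-1.54) without mouse 309. Herpud1 was 0.0088 by limma-voom and Trib3 was 0.15 by voomWithQualityWeights. With each mouse left out in turn, log2 fold changes ran from -0.45 to 0.10 for Hspa5, -0.048 to 0.47 for Xbp1, -0.31 to 0.17 for Herpud1, -0.60 to 0.14 for Dnajb9, -0.28 to 0.081 for Trib3, -0.88 to -0.54 for Ddit3, -1.39 to -0.37 for Atf3, -0.19 to -0.06 for Atf4, -1.54 to -0.73 for Chac1 and 0.25 to 0.72 for Asns. Members called lower numbered 1 by DESeq2 and by voomWithQualityWeights and 0 to 2 with a mouse left out, and those lower without overlap 0 to 3. The 4 pathway genes called higher became 14 by DESeq2, 10 by voomWithQualityWeights, 2 by upper-quartile scaling, 2 with at least 10 counts in every mouse, 1 by total counts and 0 to 4 with a mouse left out. The 4 called lower became 9, 7, 15 by total counts, and 0 to 3. Calls over all genes rose as well, to 1068 higher and 1034 lower by DESeq2 and to 804 and 606 by voomWithQualityWeights. Over all genes, 2 were called without mouse 311, 14 without 319, 15 without 314 and 664 with all 8 mice. Total counts without a composition factor shifted the median log2 fold change of all genes to -0.22, with 144 genes called higher and 857 lower (14.4% higher), and upper-quartile scaling gave 254 and 298 (46.0%), against 374 and 290 (56.3%). No scaling changed the sign of a member. Among the 23 pathway genes chosen by rule 1 value changed sign, that of Nfe2l1 by total counts (-0.011). The causes were not tested. Asns had the fewest read pairs of the members, 26 to 83 per mouse. No paired analysis was possible because the animal numbers are not shared between the groups.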
